A study of Rattus norvegicus with 16 samples.

Results

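The genes described are 9 members of glutathione conjugation and glutathione synthesis in rat islets: the transferases Gsta4, Mgst1, Gstm1, Gstm2, Gstp1, Gstt1 and Gstt2, and Gclc and Gclm, the subunits of the enzyme that starts glutathione synthesis. Every probe set whose annotated gene symbol was one of these names was taken, which gave 10 probe sets (2 for Gclc) of 15923 on the array. The set was chosen by the signal of Gsta4 and Mgst1, which was high in islets given a PPARγ virus and a PPARγ agonist. Those values are therefore given as a description, and p-values of the members are given only for comparisons that do not use the arrays with both the virus and the agonist. A probe set entered the tests if its intensity was above 39.3 in at least 4 arrays, and 8 of the 10 did. Gstm2 was above that level in 2 arrays and the first Gclc probe set, 1370688_at, in 1 array.

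RNA of isolated rat pancreatic islets was read on expression arrays in 4 groups. Islets with the PPARγ adenovirus and 200 nM GW347845, a PPARγ agonist, made up 4 arrays, islets with the PPARγ adenovirus and vehicle made up 4, islets with a null adenovirus and 200 nM GW347845 made up 3, and islets with the null adenovirus and vehicle made up 3. All islets were infected for 32 h at 50 viral particles per cell, followed by 16 h in compound or in 0.004% DMSO, so no group was free of virus. The sources used here name neither the strain, age and sex of the rats nor the cell types that the virus entered, and nothing says whether the replicates came from separate islet preparations, so the p-values measure only the spread between these arrays, which may be technical.

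The columns for null virus replicate 2 in compound and in vehicle were identical in all 15923 probe sets and were left out, which left 14 of 16 columns. The probe set for Pparg, the gene carried by the virus, read 4593.4 to 5966.4 in PPARγ virus arrays with compound and 4939.2 to 6199.1 in those with vehicle. It read 25.6 to 51.4 in null virus arrays with compound and 27.7 to 39.1 in those with vehicle. These values match the virus named in the label of every array. They overlapped between compound and vehicle under each virus, so they do not check the compound part of the labels. The islet markers Ins1 (4626.9 to 7093.1) and Ins2 (3313.5 to 4421.2) were high on all 14 arrays. All values are intensities on the linear scale as deposited, and log2 differences are of log2(intensity + 4.6), which understates the change of dim probe sets. Among pairs of arrays sharing virus and replicate number, 7 of 7 had a larger 3′ to 5′ signal ratio of the actin control probes in compound. The mean log2 difference was 0.30. For GAPDH, another control, the compound array gave the larger value in 4 of 7 such pairs, with a mean log2 difference of 0.06. Over the 14 arrays the ratios spanned 7.58 to 14.9 for actin and 8.36 to 18.9 for GAPDH. Null virus replicate 3 with compound held the GAPDH value of 18.9, and the next highest was 12.6. The part of these ratios in the results was not tested.

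Glutathione transferases join the tripeptide glutathione to reactive, mostly fat-soluble compounds, which the cell then exports. Some of them also reduce lipid peroxides, and glutathione itself is made by glutamate-cysteine ligase and glutathione synthetase. Beta cells are known for weak hydrogen peroxide defences, with little catalase. PPARγ is a nuclear receptor that binds DNA as a partner of RXR and is best known for turning on lipid storage genes in fat cells, and NRF2 is the transcription factor best known for raising glutathione genes through the antioxidant response element.

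The 250 bases before the annotated start of each gene are shown for the pair whose signal was highest with virus and compound, Gsta4 and Mgst1, and for Gstp1 and Gclm, which followed another pattern across the arrays. The sequences are from RefSeq on GRCr8, 5′ to 3′ on the strand of the gene, and were found for 7 of the 9 genes. Capitals mark matches to the antioxidant response element core.
Gsta4, chr8:87947015-87947264, plus strand: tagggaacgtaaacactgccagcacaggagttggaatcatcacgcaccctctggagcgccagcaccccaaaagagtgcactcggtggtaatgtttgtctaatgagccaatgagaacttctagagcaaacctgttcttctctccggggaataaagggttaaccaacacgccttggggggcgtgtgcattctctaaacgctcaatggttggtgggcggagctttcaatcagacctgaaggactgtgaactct
Mgst1, chr4:172760680-172760929, plus strand: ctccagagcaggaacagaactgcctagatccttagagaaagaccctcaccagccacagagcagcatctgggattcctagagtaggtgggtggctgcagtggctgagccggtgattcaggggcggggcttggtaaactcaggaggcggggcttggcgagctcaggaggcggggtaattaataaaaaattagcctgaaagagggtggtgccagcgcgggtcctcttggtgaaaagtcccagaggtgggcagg
Gstp1, chr1:210769706-210769955, minus strand: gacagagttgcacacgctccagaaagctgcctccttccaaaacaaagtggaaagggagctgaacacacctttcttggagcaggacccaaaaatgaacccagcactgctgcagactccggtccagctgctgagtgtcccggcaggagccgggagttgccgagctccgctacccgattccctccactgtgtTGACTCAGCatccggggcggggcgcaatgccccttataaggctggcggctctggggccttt
Gclm, chr2:213031885-213032134, plus strand: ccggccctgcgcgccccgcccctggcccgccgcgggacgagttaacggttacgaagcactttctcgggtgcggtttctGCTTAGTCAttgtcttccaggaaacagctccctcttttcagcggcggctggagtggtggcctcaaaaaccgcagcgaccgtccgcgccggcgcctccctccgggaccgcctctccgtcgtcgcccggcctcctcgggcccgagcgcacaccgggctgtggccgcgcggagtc
Letters were searched on both strands in these windows and in the same window of 33469 rat promoters. The PPAR-RXR direct repeat, AGGTCA followed by any 1 base and AGGTCA again, was in 0 of the 7 member promoters and in 0.0508% of all promoters. Its half-site AGGTCA, which the repeat contains, was in 1 of 7 (Gstm1) and in 14.1% of all. The antioxidant response element core TGACNNNGC was in 2 of 7 and in 10.1% of all: in Gstp1 as TGACTCAGC, 61 to 53 bases before the start, and in Gclm as GCTTAGTCA on the other strand, 172 to 164 bases before it. The Gsta4 and Mgst1 windows held none of these letter strings, which says nothing about sites elsewhere.

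Gsta4, an alpha-class transferase that conjugates the lipid peroxidation product hydroxynonenal, had its highest signal where islets carried both the PPARγ virus and GW347845. Its probe set, 1372297_at, read 587.2, 197.6, 630.0 and 271.4 in replicates 1 to 4 of the PPARγ virus with compound, against 148.7, 64.8, 125.5 and 36.2 in the PPARγ virus with vehicle. It read 36.5, 26.4 and 33.8 in null virus replicates 1, 3 and 4 with compound, against 46.9, 17.8 and 25.1 with vehicle. All 4 arrays with virus and compound were above all other arrays, and the null virus arrays with and without compound overlapped. Gsta4 passed the intensity filter through the arrays where it was high: 7 of 8 PPARγ virus arrays were above 39.3, and 1 of 6 null virus arrays. The group means were 422 ± 219 (SD, n = 4) with virus and compound, 93.8 ± 52.2 (n = 4) with virus and vehicle, 32.2 ± 5.23 (n = 3) with null virus and compound, and 29.9 ± 15.1 (n = 3) with null virus and vehicle. In bulk RNA of whole islets, a change in the number of cells of a type and a change in RNA per cell cannot be told apart.

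Mgst1, a transferase and peroxidase embedded in the endoplasmic reticulum and outer mitochondrial membranes, followed the same order of groups. Its probe set, 1367612_at, read 977.8, 1035.5, 721.1 and 899.6 in PPARγ virus arrays with compound, against 506.0, 419.8, 400.3 and 542.7 with vehicle. It read 370.5, 241.4 and 432.9 in null virus arrays with compound, against 320.2, 201.4 and 323.4 with vehicle. The arrays with virus and compound again stood above all others, and the null virus groups overlapped. The means were 909 ± 137 (SD, n = 4) with virus and compound, 467 ± 68.1 (n = 4) with virus and vehicle, 348 ± 97.7 (n = 3) with null virus and compound, and 282 ± 69.5 (n = 3) with null virus and vehicle.

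**Figure D1:**
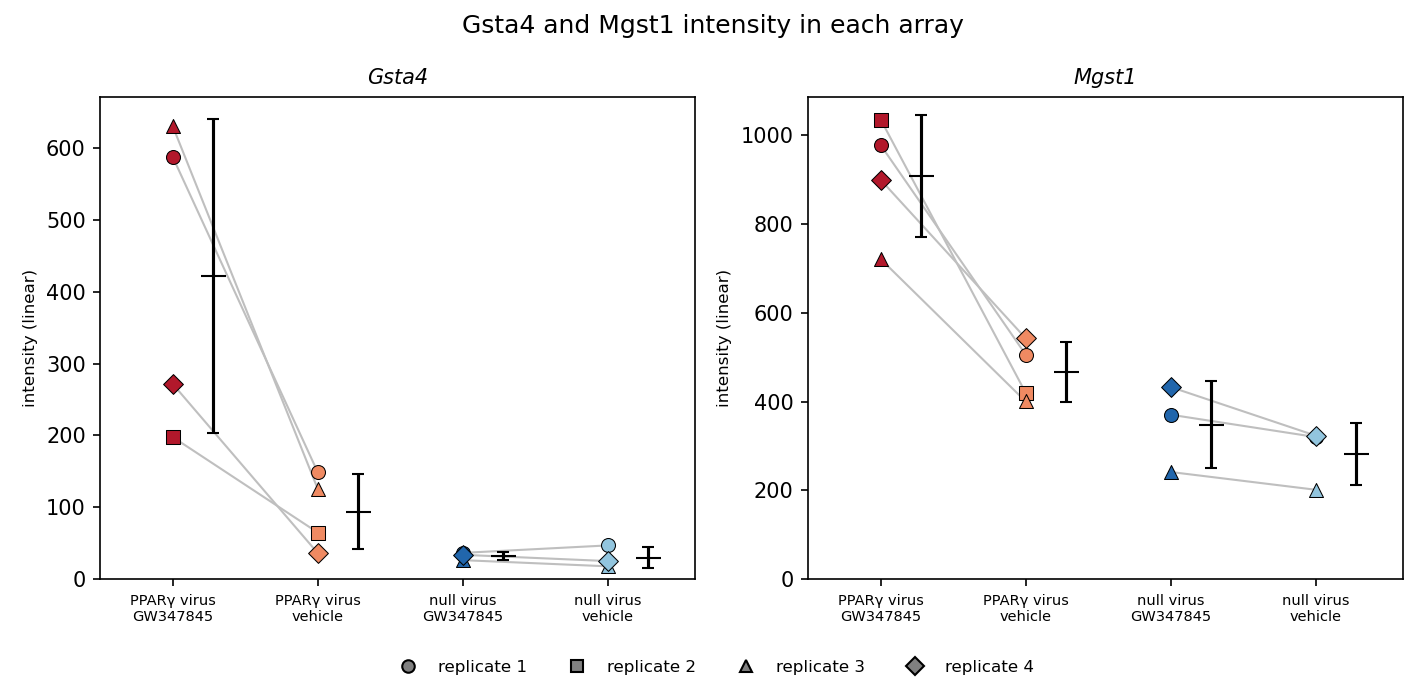
Intensity (linear axis from 0) of Gsta4 and Mgst1 on each of the 14 arrays, by group, with a marker per array shaped by replicate number, grey lines joining compound and vehicle of the same virus and number, and black bars for the group mean ± SD. All 4 arrays with PPARγ virus and GW347845 lie above every other array, at 197.6 to 630.0 for Gsta4 and 721.1 to 1035.5 for Mgst1.

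Arrays of the same virus and replicate number deviated together, so compound and vehicle can be read in pairs. Under the PPARγ virus, Gsta4 with compound was 3.95, 3.05, 5.02 and 7.50 times its vehicle partner in replicates 1 to 4. Mgst1 with compound was 1.93, 2.47, 1.80 and 1.66 times its partner. Every pair was higher for both genes, and the replicate with the highest Gsta4 ratio had the lowest Mgst1 ratio. Under the null virus, Gsta4 was higher in 2 of 3 pairs, with ratios between 0.778 and 1.48. Mgst1 was higher in 3 of 3, with ratios between 1.16 and 1.34.

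As fitted differences, compound against vehicle under the PPARγ virus came to 2.13 ± 0.43 for Gsta4 (log2, SE, 95% interval 1.22 to 3.05, 4.39-fold) and to 0.95 ± 0.19 for Mgst1 (0.53 to 1.37, 1.93-fold). Pairing the arrays by replicate number left both values unchanged and narrowed the SE to 0.18 for Gsta4 and 0.09 for Mgst1. These SEs come from limma and share 1 estimate of the spread over the pairs of both viruses. The SD of the 4 PPARγ virus pair differences themselves was 0.52 for Gsta4 and 0.25 for Mgst1. With both virus and compound, set against null virus in vehicle, the difference was 3.55 ± 0.46 for Gsta4 (11.7-fold) and 1.69 ± 0.21 for Mgst1 (3.23-fold). PPARγ virus against null virus with compound on both sides came to 3.38 ± 0.46 for Gsta4 (10.4-fold) and 1.40 ± 0.21 for Mgst1 (2.64-fold). These comparisons share arrays with each other, and all use the arrays on which the 2 genes were picked, so none of these values is a test. The difference between the compound effects under the 2 viruses was 1.96 ± 0.66 for Gsta4 (0.56 to 3.37) and 0.66 ± 0.30 for Mgst1 (0.02 to 1.29), on the same terms.

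The virus alone, PPARγ against null in vehicle, uses none of the arrays with both virus and agonist. Its arrays were still among those that Gsta4 and Mgst1 rose above when they were picked. For Gsta4 and Mgst1 the comparison is therefore not independent of the choice. Gsta4 averaged 93.8 ± 52.2 in PPARγ virus arrays and 29.9 ± 15.1 in null virus arrays (SD, n = 4 and n = 3), a log2 difference of 1.42 ± 0.46 (SE, 0.42 to 2.41, 2.67-fold), and it did not pass (limma, Benjamini-Hochberg adjusted p = 0.774 over 10078 probe sets). Gsta4 had entered the test through its PPARγ virus arrays, and without the intensity filter its adjusted p was 0.765 (limma, 15866 probe sets). Its groups overlapped, since PPARγ virus replicate 4 at 36.2 lay below null virus replicate 1 at 46.9. Mgst1 differed by 0.74 ± 0.21 (0.29 to 1.19, 1.67-fold, limma adjusted p = 0.499). All 4 of its PPARγ virus arrays, at 400.3 to 542.7, lay above the 3 null virus arrays, at 201.4 to 323.4. Mgst1 was the only 1 of the 8 tested member probe sets higher without overlap, where 2.45% of all tested probe sets were, and 0 were lower without overlap, where 2.17% were.

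Across the members, 0 of 8 probe sets passed an adjusted p of 0.05 for the virus in vehicle (limma), against 0.0397% of all probe sets, and 3 of 8 (Gstt1, Mgst1 and Gsta4) had an unadjusted p under 0.05, against 4.43% of all. With Gsta4 let into the test by its virus arrays, that count supports nothing by itself. With PPARγ virus replicates 1 and 3 alone, a setting chosen after seeing the data, Gsta4 differed by 2.12, and with replicates 2 and 4 alone by 0.71. Replicates 1 and 3 hold the higher Gsta4 values of that group, so these are descriptions with no test. Over all alternatives the Gsta4 difference ran from 0.71 to 2.12 and that of Mgst1 from 0.52 to 0.86, and both stayed positive.

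The compound alone, GW347845 against vehicle under the null virus, also leaves out the arrays with both virus and agonist. Its arrays too were among those that Gsta4 and Mgst1 rose above when they were picked. Gsta4 differed by 0.17 ± 0.50 (log2, SE), with an interval of -0.89 to 1.23, and Mgst1 by 0.29 ± 0.23, with an interval of -0.19 to 0.77. For both, limma gave an adjusted p of 1.00. None of the 8 tested probe sets (0 of 8) passed in limma and 0 had an unadjusted p under 0.05, against 0.0% and 0.943% of all probe sets, and 0 of 8 separated the groups (2.08% of all did so upward and 2.53% downward). With the pairs as a block, 1 of the 8, Mgst1, had an unadjusted p of 0.0168 (4.08% of all were under 0.05) and an interval of 0.06 to 0.52, and its adjusted p remained 1.00. The intervals do not exclude, for Gsta4, a change in either direction by 0.89 on the log2 scale.

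The soluble transferases other than Gsta4 gave no common pattern. Gstt1, a theta-class enzyme that acts on small halogenated compounds, read 70.5, 62.6, 83.6 and 75.5 in PPARγ virus arrays with compound, against 50.4, 45.2, 70.5 and 37.0 with vehicle. It read 80.9, 86.8 and 86.8 in null virus arrays with compound, against 90.9, 70.2 and 80.7 with vehicle. The PPARγ virus arrays with vehicle were thus the lowest group, and replicate 3 at 70.5 touched the null virus range. In vehicle the virus difference was -0.65 ± 0.18 (-1.03 to -0.27), which did not pass (limma adjusted p = 0.450) and was negative in all 25 alternatives, between -0.90 and -0.40. With compound, Gstt1 was higher in 4 of 4 PPARγ virus pairs (described only, 0.51 ± 0.16) and in 2 of 3 null virus pairs.

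Gstt2, the other theta-class member, read between 43.5 and 75.3 on all 14 arrays and differed by -0.02 ± 0.18 for the virus in vehicle and 0.14 ± 0.19 for the compound under the null virus. Gstm1, a mu-class enzyme that conjugates many drug metabolites, read 29.5, 48.4, 36.5 and 27.1 in PPARγ virus arrays with compound, against 59.9, 53.2 and 57.5 in null virus arrays with compound. All 4 lay below those 3, 1 of 8 member probe sets to do so where 5.26% of all did. That contrast uses the arrays behind the choice of genes, so nothing is read from it. In vehicle the same probe set read 55.9, 52.8, 35.7 and 33.3 with PPARγ virus and 49.1, 27.8 and 55.3 with null virus, and these groups overlapped. Only 8 of the 14 Gstm1 values were above 39.3. Gstm2, of the same class, read 12.7 to 45.4 and was too dim to test.

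Gstp1, the pi-class transferase known in rat liver as a marker of early tumour foci, varied more between replicates than between conditions. It read 423.0, 910.4, 307.2 and 695.1 in PPARγ virus arrays with compound, against 413.1, 1037.6, 320.1 and 869.8 with vehicle. It read 627.1, 750.6 and 511.8 in null virus arrays with compound, against 652.9, 810.0 and 590.8 with vehicle. Replicates 2 and 4 of the PPARγ virus were high and replicates 1 and 3 low, with and without compound. The SD of the 4 log2 values was 0.70 with compound and 0.81 with vehicle, while the SD of the 4 paired differences was 0.15. The virus difference in vehicle was -0.20 ± 0.39 and the compound difference under the null virus -0.12 ± 0.42, each with a limma adjusted p of 1.00.

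**Figure D2:**
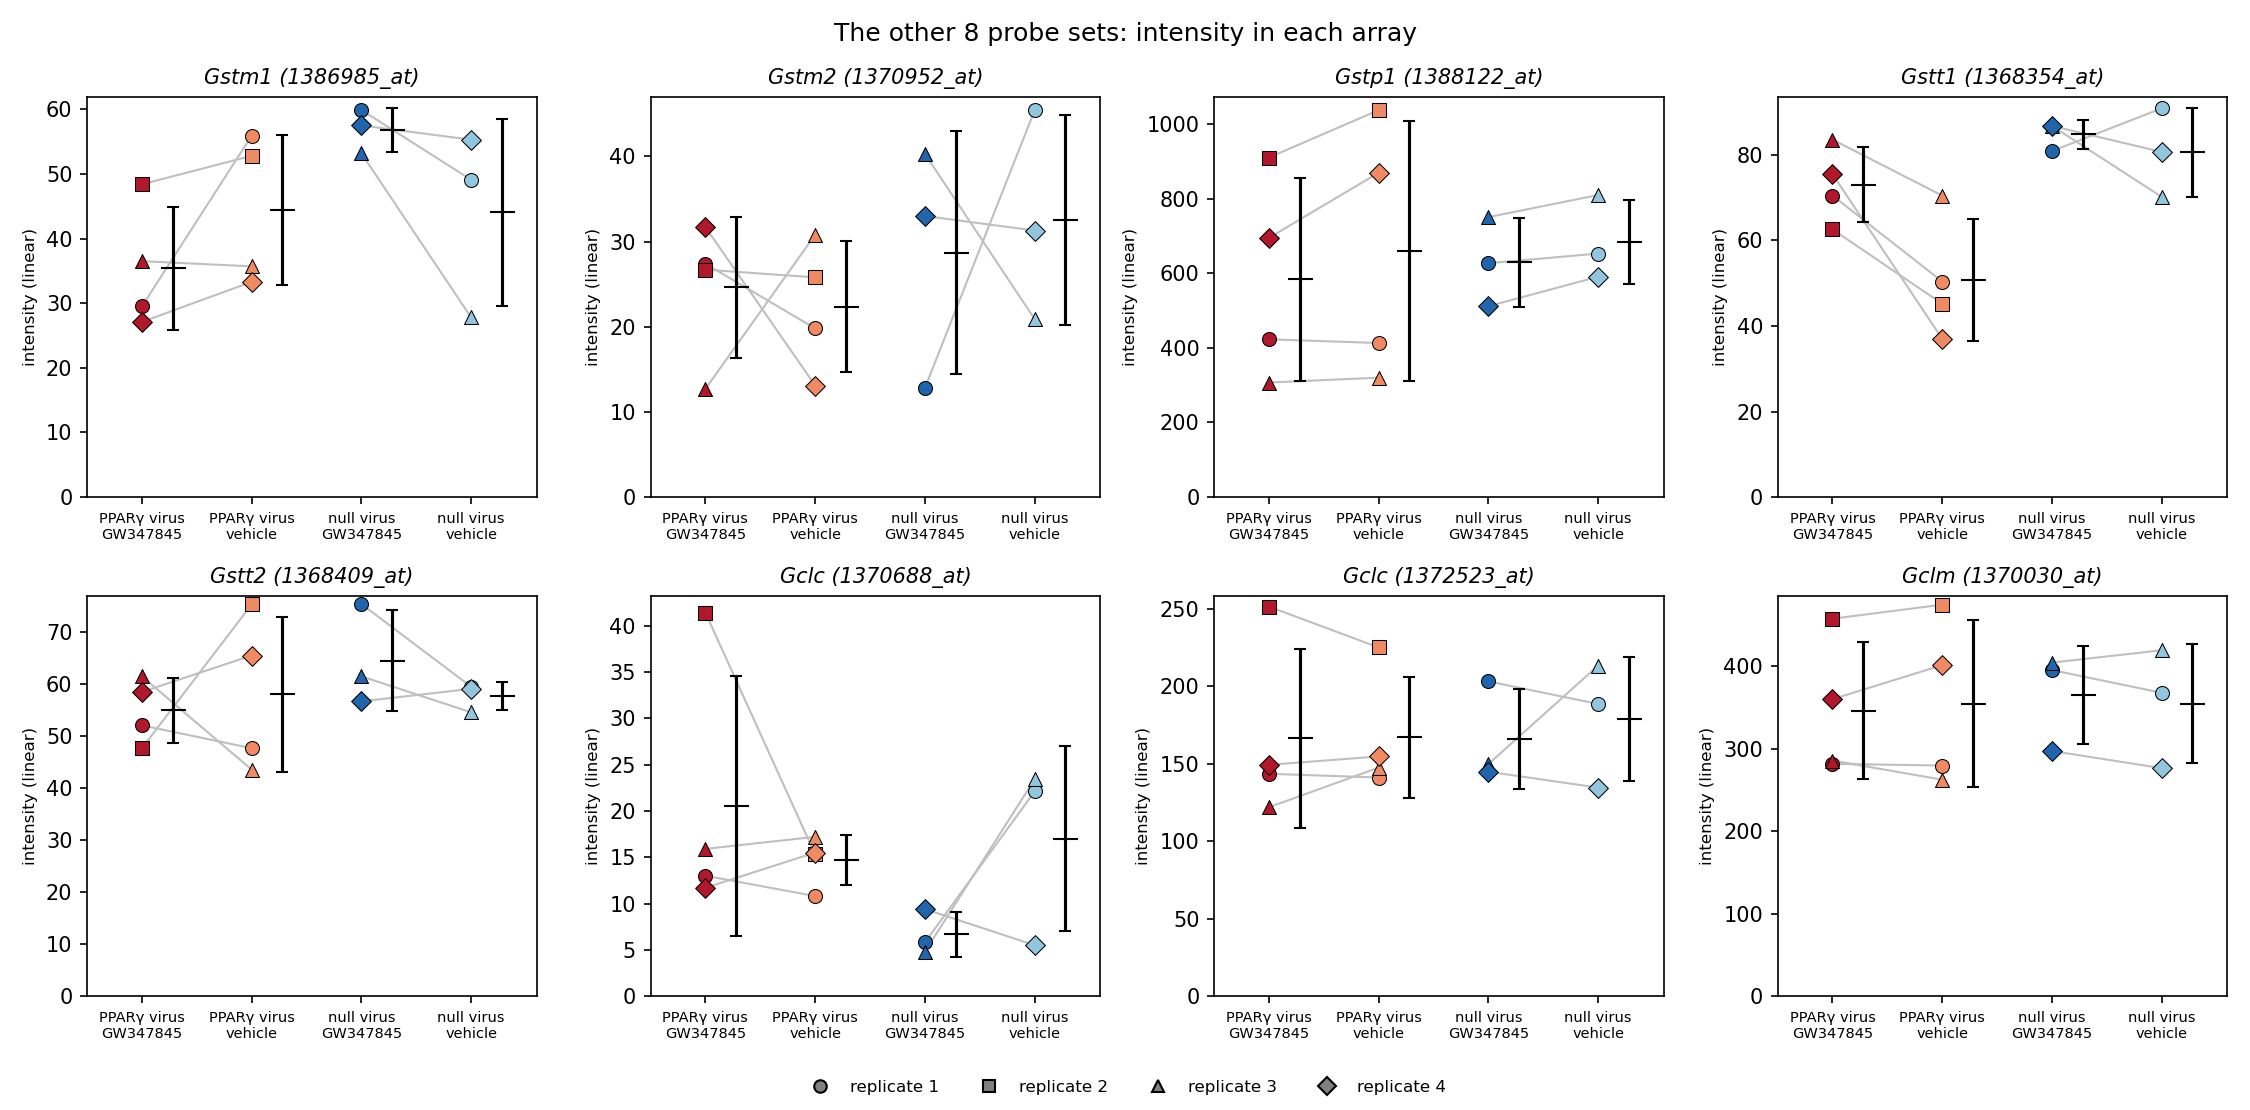
Intensity (linear axis from 0) of the other 8 member probe sets on each array, drawn with the same markers, joining lines and mean ± SD bars as for Gsta4 and Mgst1. Gstp1 and Gclm spread over replicates within the PPARγ virus groups (307.2 to 1037.6 and 262.4 to 474.6), and Gstm2 and Gclc probe set 1370688_at lie mostly below the intensity filter of 39.3.

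For glutamate-cysteine ligase, the enzyme that sets the rate of glutathione synthesis, no difference between conditions was detectable at the precision of these arrays. The modifier subunit gene Gclm read 281.7, 457.6, 285.6 and 360.0 in PPARγ virus arrays with compound, against 279.5, 474.6, 262.4 and 401.3 with vehicle. It read 395.3, 404.4 and 297.2 in null virus arrays with compound, against 367.8, 419.3 and 276.4 with vehicle. Compound and vehicle partners were close, and replicates 2 and 4 of the PPARγ virus were again the high ones. The virus difference in vehicle was -0.02 ± 0.23 (-0.51 to 0.46) and the compound difference under the null virus 0.05 ± 0.24 (-0.47 to 0.57), so changes up to about those bounds cannot be seen here. The catalytic subunit gene Gclc, on probe set 1372523_at, read 122.0 to 251.6 in PPARγ virus arrays with compound and 141.2 to 225.2 with vehicle. It read 144.9 to 203.3 in null virus arrays with compound and 134.7 to 213.5 with vehicle. Its differences were -0.10 ± 0.24 for the virus in vehicle and -0.10 ± 0.25 for the compound under the null virus. The other Gclc probe set read 4.8 to 41.4 and was not tested.

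Read over all 8 tested probe sets, the median log2 difference of the members was -0.02 for the virus in vehicle, against 0.00015 over all tested probe sets, and 0.11 for the compound under the null virus, against 4.5e-05. For the compound under the PPARγ virus it was -0.03, against -0.02 over all. In the contrasts that use the arrays behind the choice, counts of members past the threshold were fixed by that choice, are no test of it, and are set beside the share of all probe sets as a description only. Gsta4 and Mgst1 were the 2 of 8 over it for the virus with compound (0.705% of all, 0.635% upward and 0.0695% downward) and for virus and compound against neither (0.665%). For the compound under the PPARγ virus the count was 0 of 8 without pairing in limma (0.0595%), with 3 of 8 at an unadjusted p under 0.05 (2.93%), and 2 of 8 with pairing (0.397%, 0.357% upward). For the difference between the compound effects it was 0 of 8 without pairing (0.0%), with 2 of 8 at an unadjusted p under 0.05 (1.42%), and 1 of 8, Gsta4, with pairing (0.0496%). The same 2 genes were higher without overlap for the virus with compound (4.56% of all), for the compound under the PPARγ virus (0.645%) and for both against neither (4.06%). None was lower without overlap in the last 2 of these, where 1.15% and 4.89% of all were.

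**Figure D3:**
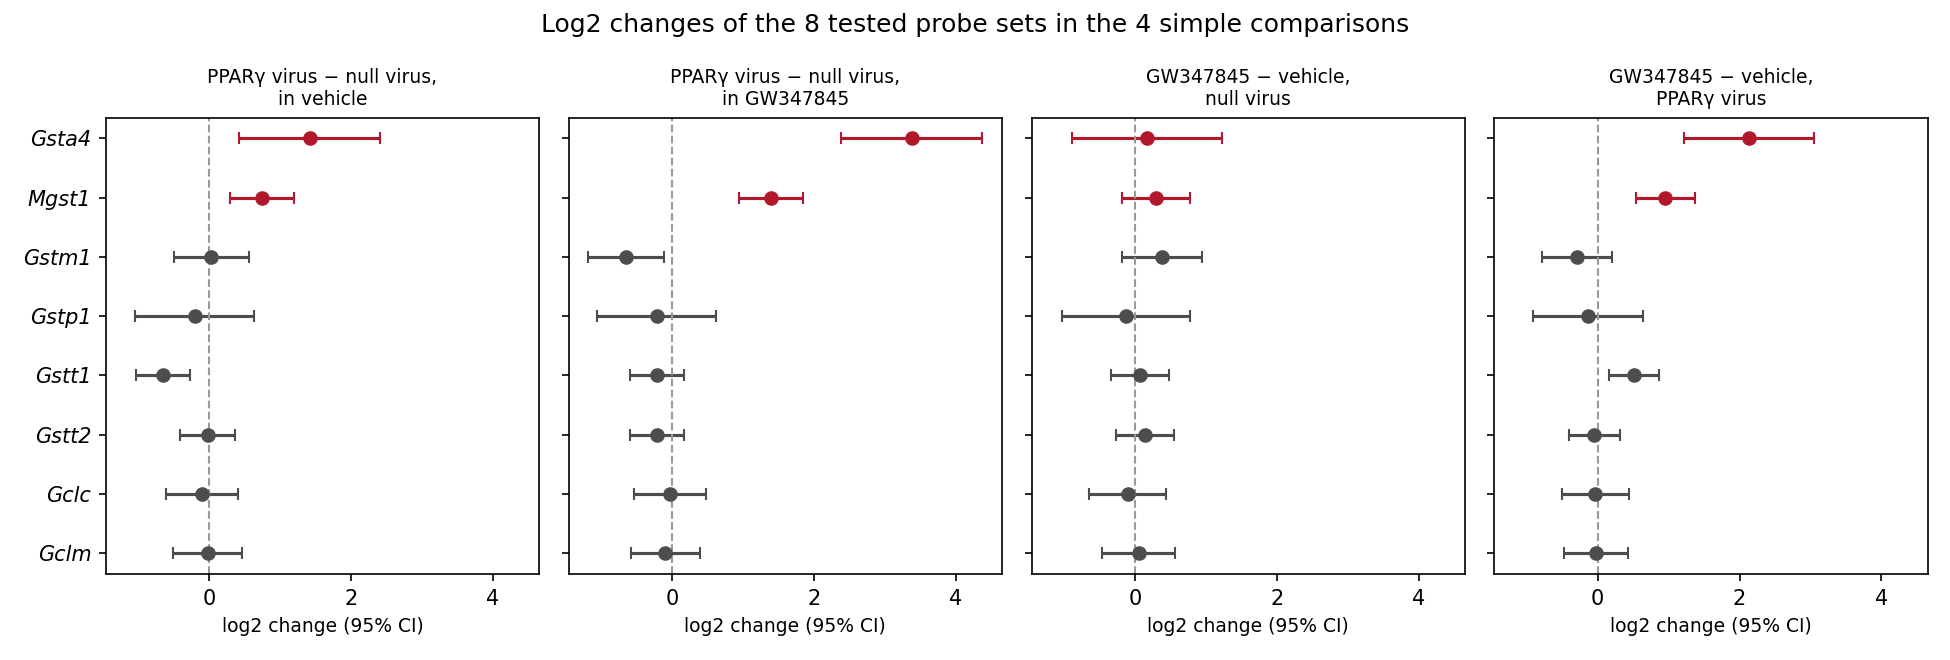
Fitted log2 differences (points) with 95% intervals (bars) of the 8 tested member probe sets, for the virus in vehicle, the virus in GW347845, the compound under the null virus and the compound under the PPARγ virus, Gsta4 and Mgst1 in red. Gsta4 and Mgst1 are at 2.13 and 0.95 for the compound under the PPARγ virus and at 0.17 and 0.29 under the null virus, and the intervals of Gstp1, Gstt2, Gclc and Gclm include 0 in all 4 panels.

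The PPARγ virus replicates also differed in their content of islet hormones other than insulin. The summed intensity of Gcg, Sst, Ppy, Pyy and Ghrl (5 of 5 measured) was 8424.2 and 8968.4 in replicates 1 and 3 with compound and 8518.2 and 9837.3 with vehicle. It was 498.3 and 2337.6 in replicates 2 and 4 with compound and 998.5 and 2448.1 with vehicle. Null virus arrays lay at 5442.4 to 7456.9 with compound and 4640.4 to 9223.6 with vehicle. Replicates 2 and 4 were thus low in these hormones whatever the compound, while the summed beta cell markers (6 of 13 measured) spanned 12708.4 to 16139.3 there and 16697.3 to 17807.7 in replicates 1 and 3.

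Some members differed between these replicates, as did many other probe sets: replicates 2 and 4 lay above replicates 1 and 3 without overlap in 10.6% of all tested probe sets and below them in 12.5%. Of the 8 member probe sets, 3 lay above and 0 below. Gstp1 read 695.1 to 1037.6 in PPARγ virus replicates 2 and 4 and 307.2 to 423.0 in replicates 1 and 3. Gclm read 360.0 to 474.6 in replicates 2 and 4 and 262.4 to 285.6 in replicates 1 and 3. Gclc (1372523_at) read 149.4 to 251.6 in replicates 2 and 4 and 122.0 to 147.6 in replicates 1 and 3, a gap narrower than the spread within each pair. Among null virus arrays, Gclm was lowest in replicate 4 (297.2 with compound and 276.4 with vehicle), where the hormone sum was highest (7456.9 and 9223.6). Under the PPARγ virus Gsta4 ran the other way within each treatment, at 197.6 and 271.4 in replicates 2 and 4 and 587.2 and 630.0 in replicates 1 and 3 with compound, and at 64.8 and 36.2 against 148.7 and 125.5 with vehicle. Among null virus arrays Gsta4 was highest in replicate 1 (36.5 with compound and 46.9 with vehicle), not in replicate 4 (33.8 and 25.1). Mgst1 did not separate under the PPARγ virus, at 419.8 to 1035.5 in replicates 2 and 4 and 400.3 to 977.8 in replicates 1 and 3. The Gsta4 difference for the compound under the PPARγ virus was 2.12 with replicates 1 and 3 alone and 2.15 with replicates 2 and 4 alone.

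The split turned the direction of some small virus differences. Gstp1 in vehicle was -0.89 against null virus with replicates 1 and 3 alone and 0.48 with replicates 2 and 4 alone. Gclm was -0.36 and 0.32 in the same settings. These replicates were set apart after seeing the data, no test was made between them, and the part of islet cell content in the members' values was not tested.

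**Figure D4:**
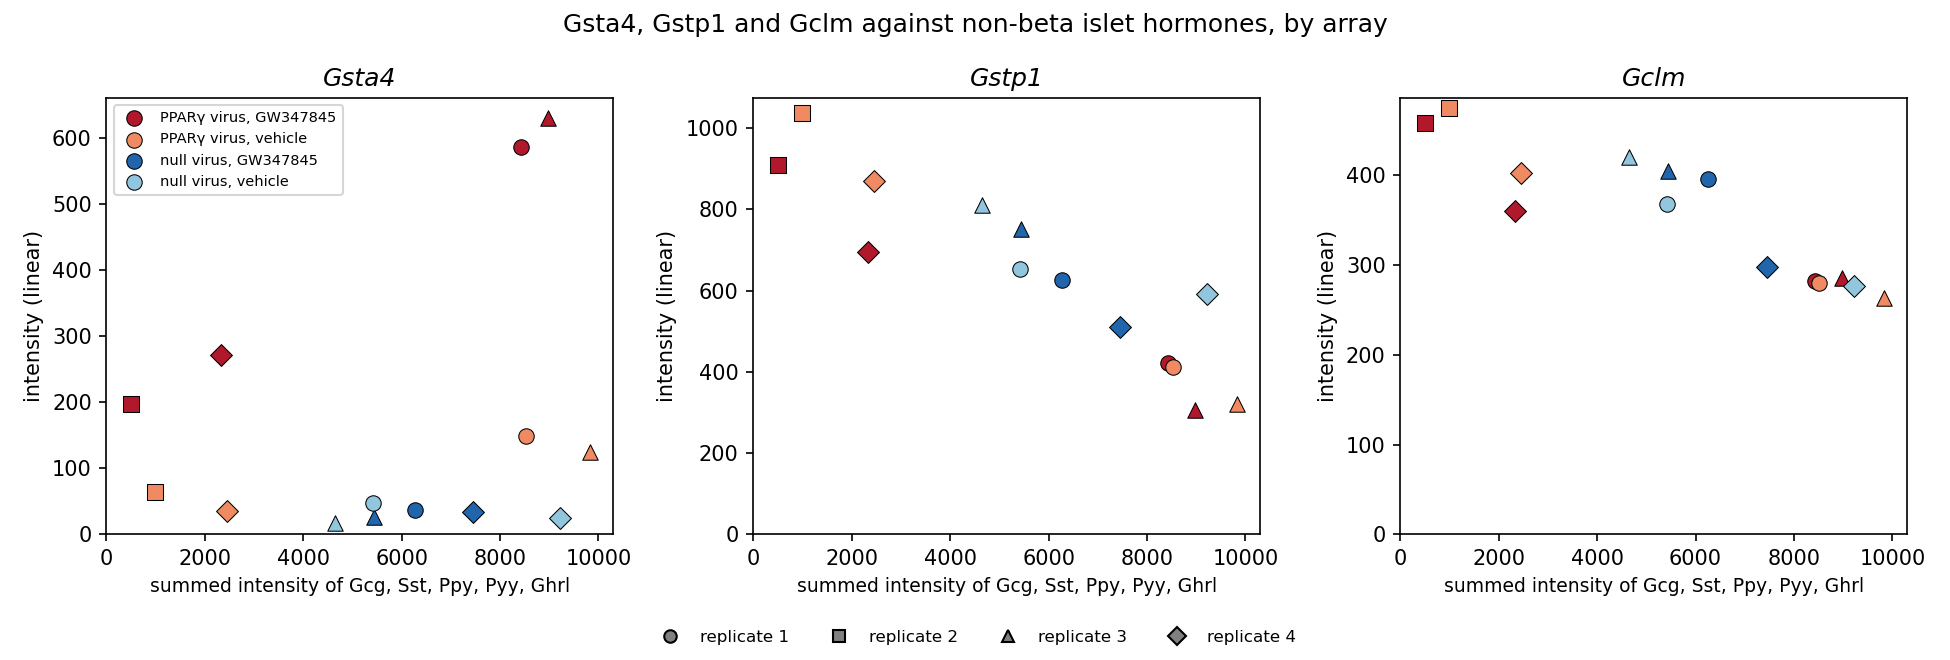
Intensity of Gsta4, Gstp1 and Gclm against the summed intensity of Gcg, Sst, Ppy, Pyy and Ghrl (both axes linear), a marker per array, coloured by group and shaped by replicate number. PPARγ virus replicates 2 and 4 (498.3 to 2448.1 on the hormone axis) are higher for Gstp1 and Gclm, and within each treatment lower for Gsta4, than replicates 1 and 3.

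Markers of other cells were measured alongside. Duct markers (8 of 11 measured) summed to 6296.1 to 7098.9 in PPARγ virus arrays with compound, 6728.6 to 7137.3 with vehicle, 6092.1 to 6932.3 in null virus arrays with compound and 5959.1 to 7371.1 with vehicle. The sums overlapped. The duct keratin gene Krt19 read 296.1, 205.0, 226.3 and 245.2 in PPARγ virus arrays with compound, against 210.0, 188.4, 114.7 and 177.0 with vehicle, and these overlapped. It read 138.7, 66.5 and 80.5 in null virus arrays with compound, against 141.5, 83.4 and 72.2 with vehicle. Krt19 was the only 1 of 7 tested duct markers to pass for the virus in compound and for virus and compound against neither. Of all probe sets, 0.635% and 0.605% passed upward there. The median log2 differences of the 7 markers were 0.092 and 0.065. The summed acinar, endothelial and stromal, and leukocyte markers overlapped between the 4 groups, at 221.7 to 723.6, 2117.1 to 4314.6 and 548.8 to 1138.7 over all arrays. The part of duct cells in the Gsta4 and Mgst1 values was not tested.

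Correlations between members over the 14 arrays are descriptions, since the arrays share groups and replicates. Gclm and Gstp1 had a Pearson r of 0.91, Gclm and Gclc 0.82, and Gclc and Gstp1 0.72. Mgst1 and Gsta4 had 0.85, and Gsta4 and Gstp1 -0.52. Gstm1 and Gstt1 went with neither set: the highest coefficient of Gstt1 with another member was 0.13 and of Gstm1 0.26. Gstt2 had 0.49 with Gclm, 0.46 with Gstp1 and 0.19 with Gclc, below the values within that set.

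By highest Pearson r over the same 14 arrays, the genes most like Gsta4 were Igfbp1 (0.96), an insulin-like growth factor binding protein, Ang (0.95), a secreted ribonuclease, Bpifa5 (0.95), Slc16a7 (0.94), a monocarboxylate transporter, and Duox2 (0.94), an oxidase that makes hydrogen peroxide. Igfbp1 averaged 211 ± 101 in PPARγ virus arrays with compound, 97.9 ± 57.0 with vehicle, 34.2 ± 1.28 in null virus arrays with compound and 45.5 ± 5.30 with vehicle (SD, n = 4, 4, 3 and 3). Those most like Mgst1 were Fabp4 (0.94), a fatty acid carrier of fat cells, G0s2 (0.94), an inhibitor of triglyceride lipase, Plin2 (0.93), a lipid droplet coat protein, Angptl4 (0.92), a secreted inhibitor of lipoprotein lipase, and Acadvl (0.91), a mitochondrial fatty acid dehydrogenase. Fabp4 averaged 572 ± 223 in PPARγ virus arrays with compound, 48.2 ± 18.7 with vehicle, 28.1 ± 12.9 in null virus arrays with compound and 17.0 ± 8.45 with vehicle. Plin2 averaged 1345 ± 323, 884 ± 257, 509 ± 82.5 and 447 ± 49.3 in the same groups. Both genes were highest with virus and compound and lowest with null virus and vehicle, the order of Mgst1.

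Beyond the 9 members, 142 names in 5 lists covered the rest of the pathway, of which 109 were measured and 94 tested with 1 probe set each. That was the probe set of the gene with the highest mean intensity, and any other probe sets of these genes were not counted. Of these 94, the 1 that passed in any contrast was Hmox2, the constitutive heme oxygenase that breaks heme down to biliverdin. Hmox2 read 137.4, 111.6, 123.0 and 134.4 in PPARγ virus arrays with compound and 121.0, 104.8, 106.0 and 116.5 with vehicle. It read 82.6, 76.6 and 71.2 in null virus arrays with compound and 81.9, 59.4 and 69.1 with vehicle. All 8 PPARγ virus arrays were above all 6 null virus arrays, and compound and vehicle overlapped under each virus. Hmox2 rose with the virus in compound by 0.69 ± 0.13 (1.61-fold, limma adjusted p = 0.0201) and with virus and compound against neither by 0.82 ± 0.13 (1.76-fold, limma adjusted p = 0.00503). The first of these calls was lost when PPARγ virus with compound replicate 1, 3 or 4, or null virus with compound replicate 3 or 4, was left out, and both calls (1 of 94, where 0.635% and 0.605% of all probe sets passed upward) went to 0 when the fit held only the groups compared or PPARγ virus replicates 2 and 4 alone.

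For the virus in vehicle, 0 of 94 pathway genes passed in limma and 4 had an unadjusted p under 0.05, a share close to the 4.43% of all probe sets. The 2 highest and 2 lowest by moderated t are given as values only. Hmox2 differed by 0.65 ± 0.13 there (limma adjusted p = 0.135). Keap1, the adaptor that marks NRF2 for breakdown, averaged 179 ± 17.0 with PPARγ virus and 143 ± 8.21 with null virus (SD, n = 4 and n = 3), 0.31 ± 0.13. Ggt7, of the gamma-glutamyltransferase family, averaged 71.2 ± 17.1 and 96.0 ± 14.4, -0.42 ± 0.18, and Cbr1, a carbonyl reductase, 336 ± 20.9 and 430 ± 34.9, -0.35 ± 0.15. These 3 had limma adjusted p of 1.00.

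For the compound, 0 of 94 passed under either virus in limma, with or without pairing. An unadjusted p under 0.05 was reached by 2 under the PPARγ virus and 1 under the null virus without pairing (2.93% and 0.943% of all probe sets), and by 10 and 7 with it (8.71% and 4.08%). For the difference between the compound effects, 0 of 94 passed and 0 had an unadjusted p under 0.05 without pairing, and with it 0 passed and 7 had one (5.8% of all). Under the PPARγ virus the 2 highest by moderated t were Cbr1 (426 ± 77.1 with compound and 336 ± 20.9 with vehicle, SD, n = 4 each, 0.32 ± 0.14) and Idh1, a cytosolic source of NADPH (0.35 ± 0.16). The 2 lowest were Sod3, the extracellular superoxide dismutase (-0.40 ± 0.19), and Clic1, a transferase-fold chloride channel protein (-0.13 ± 0.07). Under the null virus Lap3, a leucine aminopeptidase (0.53 ± 0.21), and Gss, glutathione synthetase (0.26 ± 0.14), were the 2 highest, and Anpep, an aminopeptidase at the cell surface (-0.42 ± 0.32), and Txnrd2, the mitochondrial thioredoxin reductase (-0.36 ± 0.25), the 2 lowest.

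For the compound under the PPARγ virus the list median was -0.01 for 17 genes listed as other glutathione transferases. That list also holds the related Clic1, Clic4, Ptges and Ptges2. Medians were -0.08 for 18 genes of glutathione supply and export and 0.01 for 23 peroxidases and reductases. They were 0.01 for 23 genes of the NRF2 pathway and other antioxidant enzymes and 0.05 for 13 of aldehyde clearance, against -0.02 over all probe sets. The 94 values ran from -0.40 to 0.40 there, against 2.13 for Gsta4 and 0.95 for Mgst1. For virus and compound against neither they ran from -0.74 to 0.82, against 3.55 for Gsta4 and 1.69 for Mgst1, both of which were picked for those values. Of the 17 genes listed as other transferases, 0 passed in any of the 6 contrasts in limma. Without pairing, 1 had an unadjusted p under 0.05, for virus and compound against neither (8.48% of all). With pairing, 2 did for the compound under the PPARγ virus (8.71%), 1 under the null virus (4.08%) and 1 for the difference between them (5.8%).

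**Figure D5:**
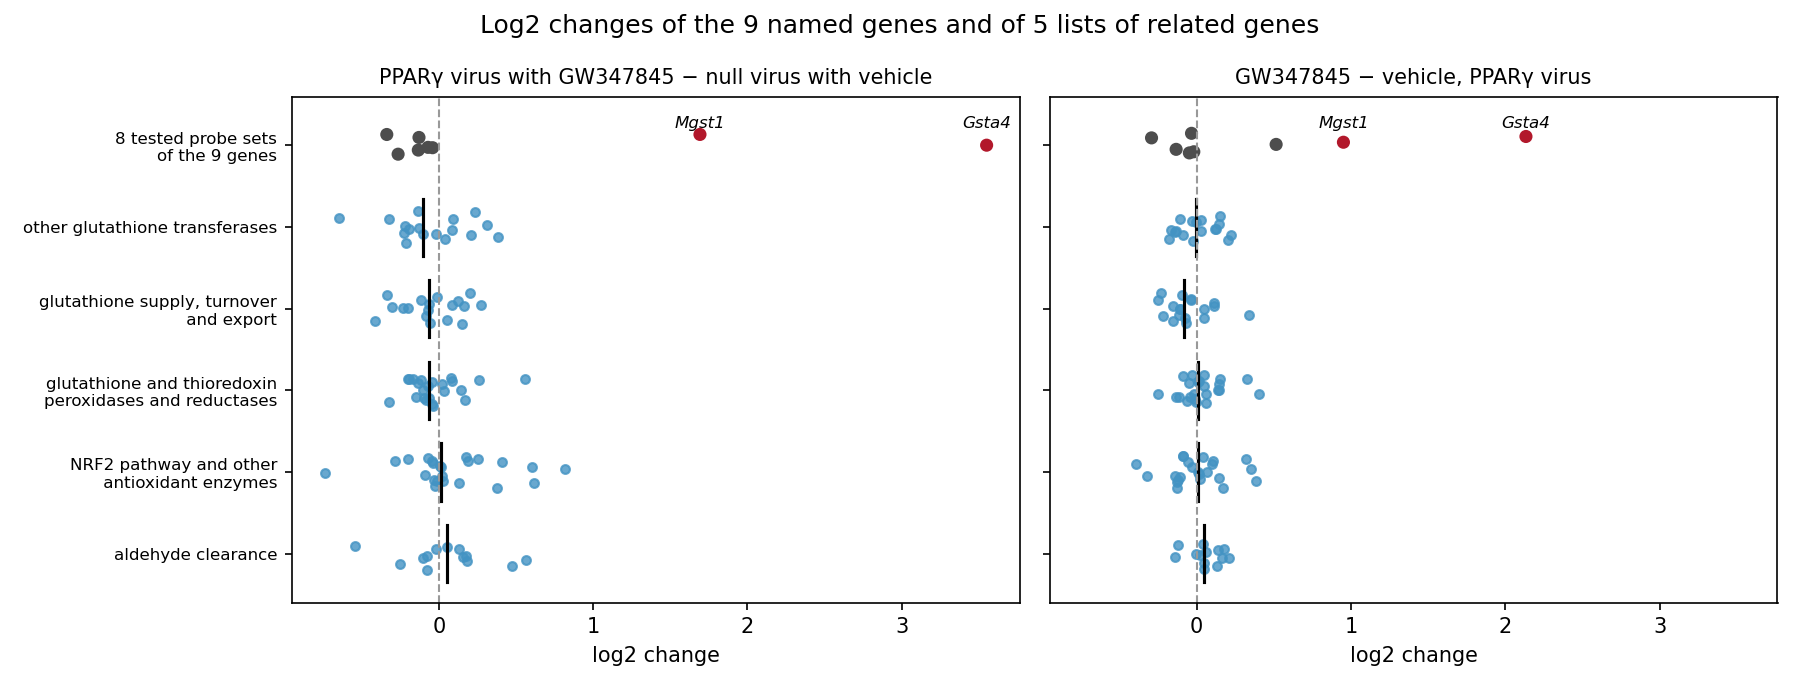
Log2 differences of the 94 tested pathway genes in 5 lists (a blue point per gene, black line at the list median) and of the 8 tested member probe sets (Gsta4 and Mgst1 in red, others grey), for PPARγ virus with GW347845 minus null virus with vehicle and for GW347845 minus vehicle under the PPARγ virus. In the second panel the pathway genes lie between -0.40 and 0.40, where Gsta4 is at 2.13 and Mgst1 at 0.95.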

How the data were processed

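The values are intensities on the linear scale, deposited by the authors as 1 value per probe set without detection calls. The summarising software is not given in the sources used here. Each deposited column had a mean of 150.0 once the top and bottom 2% were trimmed, so the authors' scaling was kept. The number of arrays limits the precision.

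From these, log2(intensity + 4.6) was computed, 4.6 being the 10th percentile of positive values. The intensity filter of 39.3 is the 40th percentile, and 57 control probe sets were left out, which left 10078 tested. The design was written to use 16 columns unless 2 null virus columns proved identical, and 14 were used. A model with a mean per group was fitted to all 4 groups with limma 3.58.1 (R 4.3.3, empirical Bayes with an intensity trend), with Benjamini-Hochberg adjustment within each contrast. The fit was tested on simulated data with independent noise between arrays, which leaves out the correlation of same-numbered arrays. Figures used Python 3.11.15 and matplotlib 3.10.9.

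Same-numbered arrays of a virus had correlated deviations from their group means (r of 0.445 to 0.702 in 7 of 7 pairs). Across viruses these ran from -0.14 to 0.43, so numbers were used as pairs only within a virus. Alternatives were the pseudocount, the filter, quantile normalization, replicate blocks, the groups in the fit, the doubly labelled array and each array left out.

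Gene symbols came from the platform annotation, updated by gene ID. All members were named, with pathway genes past the threshold or, with none, the 2 highest and 2 lowest by moderated t, and the 5 genes most correlated with Gsta4 and with Mgst1. Members and lists were chosen with earlier results of these data known.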

Additional observations from a re-analysis of the deposited data

How the results depend on the processing

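The log2 differences for the compound under the PPARγ virus stayed positive in all 26 alternatives, between 1.77 and 2.44 for Gsta4 and between 0.88 and 1.06 for Mgst1. For virus and compound against neither they ran from 2.86 to 4.24 and from 1.47 to 1.81. The settings with part of the PPARγ virus replicates were chosen after seeing the data. Depth has no counterpart on these arrays, and dim probe sets (Gstm2, Gclc probe set 1370688_at, Gstm1 and Gsta4 without the virus) are limited by signal over background.

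With a replicate block within each virus, 2 member probe sets passed for the compound under the PPARγ virus (40 of all probe sets, 0.397%). For the interaction 1 did (5 of all, 0.0496%), and the block changed no other call. Both contrasts use the arrays with virus and compound on which Gsta4 and Mgst1 were picked. Member counts in contrasts with those arrays, here and in the settings below, describe that choice and are no test. A replicate block over all groups also ties same-numbered arrays across viruses. Their deviations correlated there for replicate 1 (r of 0.30 to 0.43) but not for replicates 3 and 4 (-0.14 to 0.13). With this block, 1 member passed for the virus in vehicle (Mgst1, limma adjusted p = 0.0259), with 34 of all 10078 probe sets and 1 pathway gene. For Mgst1 that comparison is not independent of the choice of genes, so its passing is a description only. That block gave 211 probe sets and 5 pathway genes for the virus in compound, 2 members and 14 probe sets for the compound under the PPARγ virus, 177 probe sets and 4 pathway genes for both against neither, 3 probe sets for the interaction, and -0.087 for Gstm1 and the virus in vehicle.

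With only the groups compared in the fit, probe sets passing numbered 1 for the virus in vehicle and 2 for the compound under the PPARγ virus, and pathway genes 0 for the virus in compound and for both against neither. With PPARγ virus replicates 1 and 3 alone, 1 member (Gsta4, whose higher values lie in those replicates, so this is no test) and 15 of 9894 probe sets passed for the virus in vehicle. In the same setting 1 member passed for the virus in compound, 2 probe sets for the compound under the PPARγ virus and 3 pathway genes for both against neither. With replicates 2 and 4 alone, 10 probe sets passed for the virus in vehicle and 0 pathway genes for the virus in compound and for both against neither, and the virus differences in vehicle were -0.013 for Gstm1, 0.48 for Gstp1, 0.27 for Gstt2, 0.085 for Gclc and 0.32 for Gclm. With the doubly labelled array kept as null virus with compound, Gclc differed by 0.034 for the compound under the null virus. The cause of these shifts was not tested.

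Leaving out 1 array at a time changed no count of members passing. In contrasts with the virus and compound arrays those counts were set by the choice of genes, so their steadiness is no support. All probe sets passing ran from 3 to 7 for the virus in vehicle, 31 to 71 for the virus in compound, 2 to 7 for the compound under the PPARγ virus and 39 to 71 for both against neither, and pathway genes from 0 to 1 for the virus in compound. For the virus in vehicle the small differences crossed 0, at -0.24 to 0.20 for Gstm1, -0.48 to 0.085 for Gstp1, -0.15 to 0.093 for Gstt2, -0.28 to 0.041 for Gclc and -0.19 to 0.11 for Gclm. So did those for the compound under the null virus, at -0.10 to 0.50 for Gsta4, -0.26 to 0.016 for Gstp1, -0.014 to 0.16 for Gstt1, -0.28 to 0.040 for Gclc and -0.12 to 0.19 for Gclm.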
